A study of Homo sapiens with 5 samples.

Results

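The cyclins, the cyclin-dependent kinases (CDKs), their inhibitors, the E2F transcription factors and the proteins that act directly on them form the control circuit of the cell cycle. A named set of 39 such genes was looked up by gene symbol in the table of 33857 genes deposited for H9 human embryonic stem cells, an established cell line, and all 39 were present. The table holds poly(A+) RNA-seq of 5 samples, all clones of H9 grown in mTeSR medium with no treatment. The 2 mock controls, labelled control KO, were clones picked at random after transfection with an empty CRISPR/Cas9 vector. The 3 CFIm25-m samples, labelled CFIm25 KO, were single clones, each made with its own guide RNA against the start of the CFIm25 coding region, and carried small N-terminal deletions together with a reduced amount of the protein, so they are knockdown mutants and not null cells. CFIm25 is a subunit of the cleavage factor that helps to choose where pre-mRNAs are cut and polyadenylated. The comparison asked whether RNA of the cell cycle genes differed between the mutant clones and the mock controls.

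In the textbook circuit, D-type cyclins with CDK4 or CDK6, and then cyclin E with CDK2, phosphorylate the pocket proteins of the retinoblastoma family, which releases E2F factors to switch on genes for DNA replication. Cyclin A carries the cell through S phase, and cyclin B with CDK1 drives mitosis once CDC25 phosphatases have removed the phosphates that WEE1 put on the kinase. INK4 inhibitors bind CDK4 and CDK6, and CIP/KIP inhibitors bind cyclin-CDK complexes more widely. Embryonic stem cells are known for a short G1 phase and for low amounts of the CDK inhibitors.

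The table gives normalized counts, in which the reads of each library are scaled by its own size factor. Reads counted in the genes of the table, inferred from the value of 1 read in each library, summed to 18754108 to 23372391. The labels name the clones CFIm25 KO and give no RNA level. NUDT21, the gene of CFIm25, was at 6500 and 6400 normalized counts in the mock controls and at 4040, 3280 and 3400 in the CFIm25-m clones (log2 fold change -0.86, limma adjusted p = 0.00431), lower in each clone. That call was lost without either mock control (adjusted p = 0.0618 and 0.0557), in a range of 2.64e-13 to 0.106 over all alternatives. The summed level of 12 embryonic stem cell markers was 253144 to 257161 in the mock controls and 229071 to 233165 in CFIm25-m. Of those 12, ZFP42 was at 2310 and 2400 in the mock controls against 0 to 4.01 in CFIm25-m (adjusted p = 0.000123). Among markers of other cell types, 4 of 7 for endoderm, 4 of the 6 in the table for mesoderm, 3 of 7 for neuroectoderm and 3 of 6 for fibroblasts stayed at or below 10 normalized counts in every sample. The summed neuroectoderm markers, mostly DCX, were 346 to 352 in the mock controls and 177 to 196 in CFIm25-m. Of the 4 tested, 3 had a log2 fold change below 0 and 1 above 0, the highest at 0.63. Among them DCX was called lower, at 282 and 273 against 124, 135 and 118 (log2 fold change -1.14, adjusted p = 0.0064). The summed fibroblast markers, mostly COL1A1, were 9339 to 9872 against 7197 to 8361. Of the 3 tested, 1 had a log2 fold change below 0 and 2 above 0, from -0.42 to 0.34. The summed endoderm markers were 32 to 43 against 38 to 62, and the mesoderm markers 100 to 109 against 81 to 108. The part of these markers in the results on the cell cycle genes was not tested.

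None of the cell cycle genes passed the test. Genes with at least 10 normalized counts in at least 2 samples were tested with limma on log2(normalized count + 1), which kept 37 of the 39, and 0 of these 37 had an adjusted p below 0.05 in either direction. Over all 19232 tested genes, 0.936% were called lower in CFIm25-m and 0.941% higher. At an unadjusted p below 0.05, 4 of the 37 were lower (MKI67, CCNF, CDKN3 and CCNB1), against 7.15% of all tested genes, and 1 was higher (WEE1), against 7.99%. Count-based tests on the 4 samples other than CFIm25-m replicate 1 also called 0 of the 37. At an unadjusted p below 0.05 in either direction were 7 of the 37 by edgeR and 5 by DESeq2. Over all 19232 tested genes these tests gave 2732 and 1793 at that threshold. The fitted differences leaned to one side. The log2 fold change was below 0 for 27 of the 37, or 73%, against 51.8% of all tested genes, and its median was -0.12 against -0.01. All 3 CFIm25-m clones lay below both mock controls for 19 genes, or 51.4%, where the share among all tested genes was 19.8%. All 3 lay above both for 1 gene, WEE1, where the share among all tested genes was 17%. Since the RNA came from whole cultures, a smaller share of cells in a cycle phase and less RNA of a gene per cell cannot be told apart.

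The fit gave each gene an interval for its difference, which holds for single genes and not for the 37 jointly. The median standard error was 0.12 on the log2 scale. The 95% confidence interval lay within a log2 change of 1 in either direction for 36 of the 37 genes and within 1.5-fold for 29. Among all 19232 tested genes these counts were 14018 and 9704. Of the 37, the exception at the wider bound was CCNA1. In simulated data with the same groups, the test recovered 86 of 100 genes changed by 1 on the log2 scale and 31 of 100 changed by 0.5. Of its 127 calls, 10 fell on unchanged genes. Each simulated gene had the spread of the fitted trend at its level, and changed genes had a mean of at least 50. Recovery of lower genes, or of genes with more spread between clones, was not measured.

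**Figure D1:**
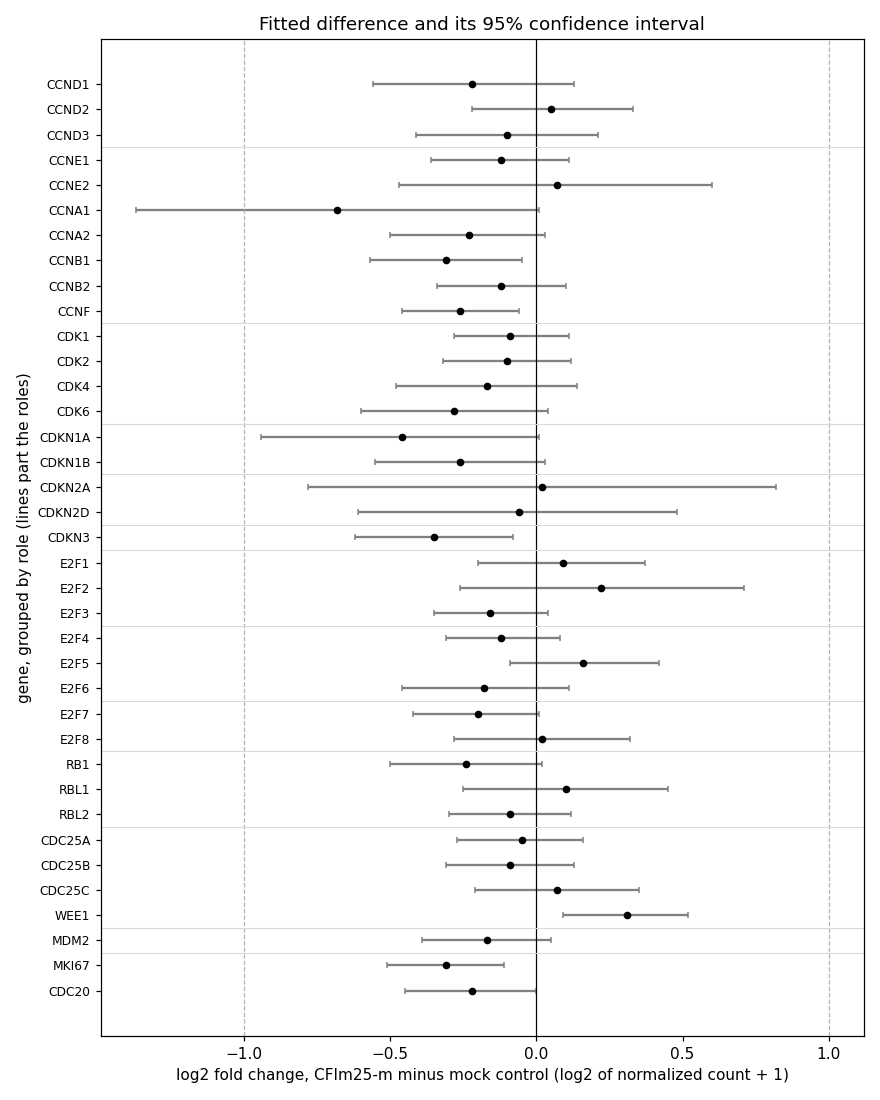
Log2 fold change (CFIm25-m minus mock control, on log2(normalized count + 1)) of the 37 tested cell cycle genes, one point a gene with its 95% confidence interval, grouped by role; dashed lines mark a change of 1 in either direction. Of the 37 points, 27 lie left of 0, and CCNA1 alone has an interval that reaches past -1.

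The D-type cyclins, which answer growth signals in G1, overlapped between the groups. CCND1 (chromosome 11) was at 5796 and 5880 normalized counts in the mock controls and at 5432, 3929 and 5928 in CFIm25-m, so 1 clone, CFIm25-m replicate 2, was well below the others (log2 fold change -0.22, SE 0.15, adjusted p = 0.536). Without that clone the fitted value was -0.04. CCND2 was at 1619 and 1549 against 1396, 1843 and 1720, and CCND3 at 605 and 604 against 546, 668 and 491. The clone that was low in CCND1 was thus the highest of the 5 samples in both CCND2 and CCND3. Per kb of gene length, the summed level of the 3 genes came to 1530 and 1540 for mock control, and to 1410, 1190 and 1550 for CFIm25-m. CCND1 made up 78.4% and 79.2% of that sum for mock control and 79.5%, 68.6% and 79.1% for CFIm25-m.

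Of the kinases that D-type cyclins activate, CDK4 was at 2150 and 2257 against 2169, 2176 and 1589, with CFIm25-m replicate 3 alone outside the range of the rest. CDK6 was at 1082 and 1130 against 1126, 847 and 798. The log2 fold changes were -0.17 (SE 0.14, adjusted p = 0.591) for CDK4 and -0.28 (SE 0.14, adjusted p = 0.402) for CDK6. CDK6 made up 11.5% of the summed level per kb of CDK4 and CDK6 in both mock controls and 11.8%, 9.14% and 11.5% in CFIm25-m, so CDK4 was the main RNA of the pair in every sample.

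The inhibitors of these kinases differed widely in level. Among the INK4 genes, CDKN2C was at 2.31 normalized counts in mock control replicate 1 and at 0 in the other 4 samples. A count of 0 reads allows up to 3 reads, or 2.7 to 3.01 normalized counts in those 4 libraries, so no fold change is given. CDKN2B was at 9.22 and 5.79 against 5.01, 10.8 and 5.77, below the minimum for the test. CDKN2A was at 17 and 24 against 25, 22 and 16, and CDKN2D at 61 and 48 against 54, 54 and 48. The groups overlapped for both, and the intervals were wide, from -0.78 to 0.82 for CDKN2A and from -0.61 to 0.48 for CDKN2D. Per kb, all 4 INK4 genes together came to 47.6 and 39.1 for mock control and to 43, 43.6 and 37.2 for CFIm25-m, against 767 and 805, and 776, 756 and 567, for CDK4 and CDK6 together.

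The CIP/KIP genes were at much higher levels. CDKN1A (chromosome 6, 36676460 to 36687339), which restrains several cyclin-CDK complexes, was at 2196 and 2253 normalized counts in the mock controls and at 1351, 2346 and 1320 in CFIm25-m. Replicates 1 and 3 of CFIm25-m lay near 0.6 of the mock mean (0.607 and 0.593) and replicate 2 lay above it (1.05). The fitted log2 fold change was -0.46 with an interval of -0.94 to 0.01 (adjusted p = 0.336), and without CFIm25-m replicate 2 it was -0.74 with an adjusted p of 0.0149. Over all alternatives the adjusted p ran from 0.0149 to 0.857. CDKN1B was at 1028 and 1079 against 979, 936 and 744, with all 3 clones below both mock controls (log2 fold change -0.26, SE 0.13, adjusted p = 0.38). MDM2, a ubiquitin ligase, was at 2045 and 1889 against 1618, 1869 and 1763 (log2 fold change -0.17, adjusted p = 0.453). CFIm25-m replicate 2, the clone with the highest CDKN1A, also had the highest MDM2 of the 3 clones. Between the mock controls the order was opposite, with replicate 1 higher in MDM2 and lower in CDKN1A. A relation between the 2 genes was not tested.

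**Figure D2:**
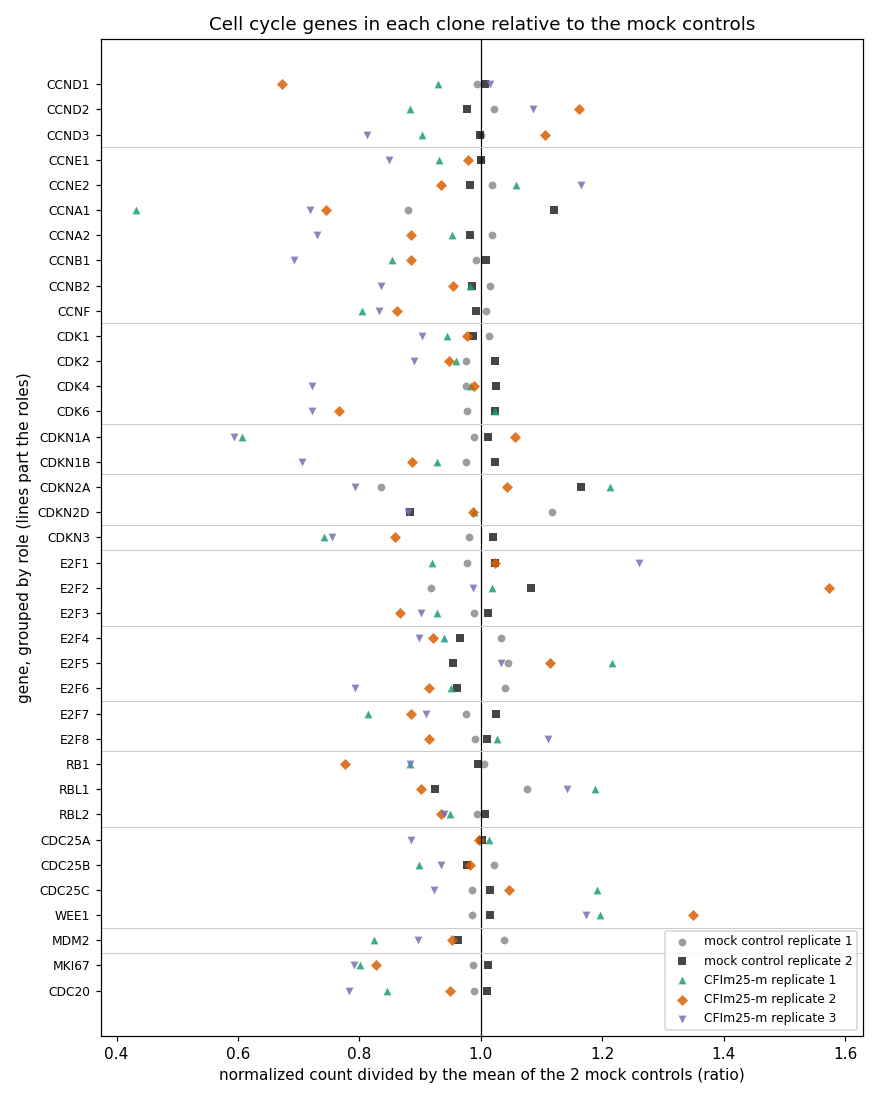
Normalized count of each of the 37 tested genes in each of the 5 samples, divided by the mean of the 2 mock controls, grouped by role. CFIm25-m replicate 2 stands apart at CCND1 (0.673) and E2F2 (1.57) and CFIm25-m replicate 3 apart at CDK4 (0.721) and E2F1 (1.26).

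The activator E2Fs did not share a direction. E2F1 was at 1519 and 1586 against 1433, 1589 and 1962, with only CFIm25-m replicate 3 above the mock controls by a clear margin. E2F2 was at 144 and 170 against 160, 247 and 155, with only CFIm25-m replicate 2 well above. E2F3 was at 1795 and 1827 against 1683, 1567 and 1627, with all 3 clones below. The log2 fold changes were 0.09, 0.22 and -0.16. That of E2F1 was -0.04 without CFIm25-m replicate 3.

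Of the repressor E2Fs, E2F4 and E2F5 act with pocket proteins in resting cells and E2F6 acts without them. E2F4 was at 2291 and 2139 against 2085, 2045 and 1994, and E2F6 at 454 and 419 against 415, 399 and 346. E2F5 was at 679 and 620 against 790, 723 and 671. Their log2 fold changes were -0.12, -0.18 and 0.16, with adjusted p-values from 0.526 to 0.564. Of the atypical E2Fs, which bind DNA without a partner and damp E2F targets late in S phase, E2F7 was at 1193 and 1247 against 993, 1077 and 1107 (log2 fold change -0.20, adjusted p = 0.359) and E2F8 at 304 and 310 against 315, 281 and 341 (0.02).

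RB1, the retinoblastoma gene, was at 544 and 538 against 478, 420 and 478, each clone below both mock controls (log2 fold change -0.24, SE 0.12, adjusted p = 0.363). Its relatives RBL1 and RBL2 were at 325 and 279 against 359, 272 and 345, and at 899 and 911 against 859, 845 and 850. The RBL2 values lay apart between the groups by a small margin, at 94.1% of the mock mean, while those of RBL1 overlapped. RBL1 was at 0.10 and RBL2 at -0.09 as log2 fold changes.

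Cyclin E with CDK2 starts replication. CCNE1 was at 897 and 898 against 835, 878 and 761, and CCNE2 at 53 and 51 against 55, 49 and 61. CCNE1 was lower in all 3 clones and CCNE2 overlapped. Their log2 fold changes were -0.12 and 0.07. CDK2 was at 833 and 874 against 819, 808 and 760 (log2 fold change -0.10, adjusted p = 0.66). CDK2 overlaps PMEL on the opposite strand, and PMEL was called lower, with a mean of 4700 in the mock controls and 3030 in CFIm25-m (adjusted p = 0.00871). The strand setting of the counting is not given in the sources used here, so reads shared between them cannot be told apart. CDK2 is not the only case, since 21 of the 39 genes overlap a gene on the opposite strand. One of them is CCNE2, which overlaps INTS8, with a mean of 1150 in the mock controls. The levels of these genes carry the same limit to unlike extents. CDC25C overlaps FAM53C (mean of 2150 in the mock controls) and CCNA2 overlaps EXOSC9 (1850), while CDKN1A overlaps DINOL (5.87).

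The S phase cyclin CCNA2 was at 4231 and 4084 against 3965, 3685 and 3025, with each clone lower (log2 fold change -0.23, adjusted p = 0.392). CCNA1, its germ cell relative, was the gene furthest from 0, at 55 and 70 against 27, 47 and 45, but low counts left an interval of -1.37 to 0.01 around the log2 fold change of -0.68 (adjusted p = 0.332). Without single samples its fitted value ran from -0.85 to -0.43. CDC25A, which acts at the entry to S phase, was at 1956 and 1971 against 1990, 1958 and 1744 (log2 fold change -0.05).

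The lowest adjusted p of the 37 genes was that of MKI67. MKI67 (ENSG00000148773, chromosome 10, 128096659 to 128126385), the gene of the Ki-67 proliferation antigen that coats mitotic chromosomes, was at 8700 and 8922 normalized counts in the mock controls and at 7064, 7293 and 6971 in CFIm25-m. The means were 8811 ± 157 (SD, n = 2) and 7109 ± 166 (SD, n = 3), or 80.7% of mock. Its log2 fold change was -0.31 (SE 0.09, interval -0.51 to -0.11, adjusted p = 0.133), and without CFIm25-m replicate 3 it was -0.30 with an adjusted p of 0.0104, in a range of 0.000579 to 0.848 over all alternatives.

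CCNF (ENSG00000162063), an F-box cyclin that directs proteins to degradation in G2, was at 1723 and 1690 against 1372, 1470 and 1424, with a log2 fold change of -0.26 (SE 0.09, interval -0.46 to -0.06, adjusted p = 0.202). CDKN3 (ENSG00000100526), a phosphatase that acts on CDKs, was at 460 and 478 against 348, 403 and 354, or 78.6% of mock (log2 fold change -0.35, SE 0.12, adjusted p = 0.218). CCNB1 (ENSG00000134057), the main mitotic cyclin, was at 6811 and 6927 against 5857, 6077 and 4746, where CFIm25-m replicate 3 was the lowest by a wide margin (log2 fold change -0.31, SE 0.12, adjusted p = 0.243). In all 3 genes each clone was below both mock controls.

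The other mitotic genes were nearer to the mock controls. CCNB2 was at 2505 and 2431 against 2419, 2346 and 2061, and CDK1 at 3050 and 2966 against 2837, 2942 and 2717. CDC20, which activates the anaphase-promoting complex, was at 4602 and 4701 against 3930, 4409 and 3638. Each clone was below both mock controls in these 3 genes, with log2 fold changes of -0.12, -0.09 and -0.22 and adjusted p-values from 0.336 to 0.672. CDC25B was at 983 and 940 against 863, 944 and 899, and CDC25C at 657 and 677 against 795, 698 and 616, and both overlapped.

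WEE1 (ENSG00000166483, chromosome 11, 9573681 to 9593457), the kinase that holds CDK1 inactive before mitosis, was the one gene of the 37 with every clone above both mock controls. It was at 2239 and 2314 normalized counts in the mock controls and at 2723, 3070 and 2666 in CFIm25-m. The means were 2277 ± 52.8 (SD, n = 2) and 2820 ± 219 (SD, n = 3), a log2 fold change of 0.31 (SE 0.10, interval 0.09 to 0.52, adjusted p = 0.167). Without CFIm25-m replicate 3 it was 0.34 with an adjusted p of 0.0252, in a range of 0.000389 to 0.881 over all alternatives. Without that same clone the calls over all genes went from 180 lower and 181 higher to 524 and 520, and without a mock control they went to 35 and 31 or to 33 and 38.

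The promoters of 3 of the 4 genes that were lower at an unadjusted p below 0.05 are shown because late cell cycle genes are known for a shared promoter code, a CCAAT box bound by NF-Y and a cell cycle homology region (CHR) bound by the MuvB complexes. Each runs from 250 bases before to 50 after the RefSeq gene start on GRCh38.p14, 5′ to 3′ on the strand of the gene, with capitals at matches to CCAAT or to the CHR letters TTTGAA and TTCGAA on either strand.
MKI67, chr10:128126374-128126673, minus strand: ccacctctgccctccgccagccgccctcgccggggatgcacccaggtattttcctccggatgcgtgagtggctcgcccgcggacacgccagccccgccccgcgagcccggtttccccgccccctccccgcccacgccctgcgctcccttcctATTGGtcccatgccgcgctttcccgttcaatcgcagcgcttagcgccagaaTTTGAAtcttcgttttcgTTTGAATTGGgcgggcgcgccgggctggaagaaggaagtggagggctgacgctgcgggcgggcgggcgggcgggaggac
CDKN3, chr14:54396757-54397056, plus strand: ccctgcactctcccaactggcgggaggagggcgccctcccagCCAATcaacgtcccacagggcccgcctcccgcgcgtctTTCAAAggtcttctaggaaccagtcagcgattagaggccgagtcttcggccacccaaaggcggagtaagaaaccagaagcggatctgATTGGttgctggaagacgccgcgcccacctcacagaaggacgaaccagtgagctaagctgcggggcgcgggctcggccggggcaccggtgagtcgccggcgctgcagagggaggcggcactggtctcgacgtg
CCNB1, chr5:69166900-69167199, plus strand: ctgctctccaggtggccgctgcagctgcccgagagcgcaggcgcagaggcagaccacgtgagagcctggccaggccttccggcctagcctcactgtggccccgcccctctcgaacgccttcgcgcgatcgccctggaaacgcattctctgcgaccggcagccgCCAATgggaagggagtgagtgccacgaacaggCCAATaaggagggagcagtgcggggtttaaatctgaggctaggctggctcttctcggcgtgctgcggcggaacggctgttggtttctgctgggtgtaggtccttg
MKI67 held CHR matches starting 47 and 29 bases before the gene start, the second of which shares 1 base with a CCAAT match. CDKN3 held 1 CHR and 2 CCAAT matches, and CCNB1 2 CCAAT matches with these CHR letters not in its window.

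Of the 39 genes, 32 had a RefSeq promoter of 300 bases, and WEE1 was not among them. CHR letters were in 8 of these 32, or 25%, against 16.6% of 27305 promoters of the same length, and CCAAT in 15, or 46.9%, against 35.7%. An E2F motif (TTTCCCGC, TTTCGCGC, TTTGCCGC or TTTGGCGC, either strand) was in 7, or 21.9%, against 3.33%. The 8 with CHR letters were CCNB2, CCNF, CDK1, CDKN3, E2F3, RBL2, MKI67 and CDC20, and their log2 fold changes all lay below 0, from -0.35 to -0.09, with a median of -0.19. The 22 tested genes without CHR letters had a median of -0.15, with 17 below 0. Other letter forms of a CHR were not searched, so these 22 are not shown to lack one. The 7 with an E2F motif had a median of -0.05, with 4 below 0, and the 23 without it a median of -0.20, with 21 below 0. A match is a description of letters, and these medians were not tested.

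The genes of the circuit spanned a wide range of levels in both groups. Per kb of gene length, CCNB1 was the highest of the 39 in the mean of the mock controls at 2690, followed by CDC20 at 2280, CCNA2 at 1490 and CCND1 at 1210, and CCNB1 and CDC20 also led in CFIm25-m at 2170 and 1960. Then came CCNB2 at 881, CDK1 at 765, CDKN1A at 729, CDK4 at 696 and MKI67 at 688 in the mock controls. In the single mock controls CDKN1A, at 720 and 739, CDK4, at 679 and 713, and MKI67, at 679 and 697, followed each other closely, and the last pair overlapped. At the low end stood CDKN2C at 0.347, CDKN2B at 1.85, CDKN2A at 4.78 and CCNE2 at 11.8. Within the E2F family E2F1 and E2F4, at 620 and 618, could not be ordered, since the single mock controls were at 607 and 633 and at 640 and 597.

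**Figure D3:**
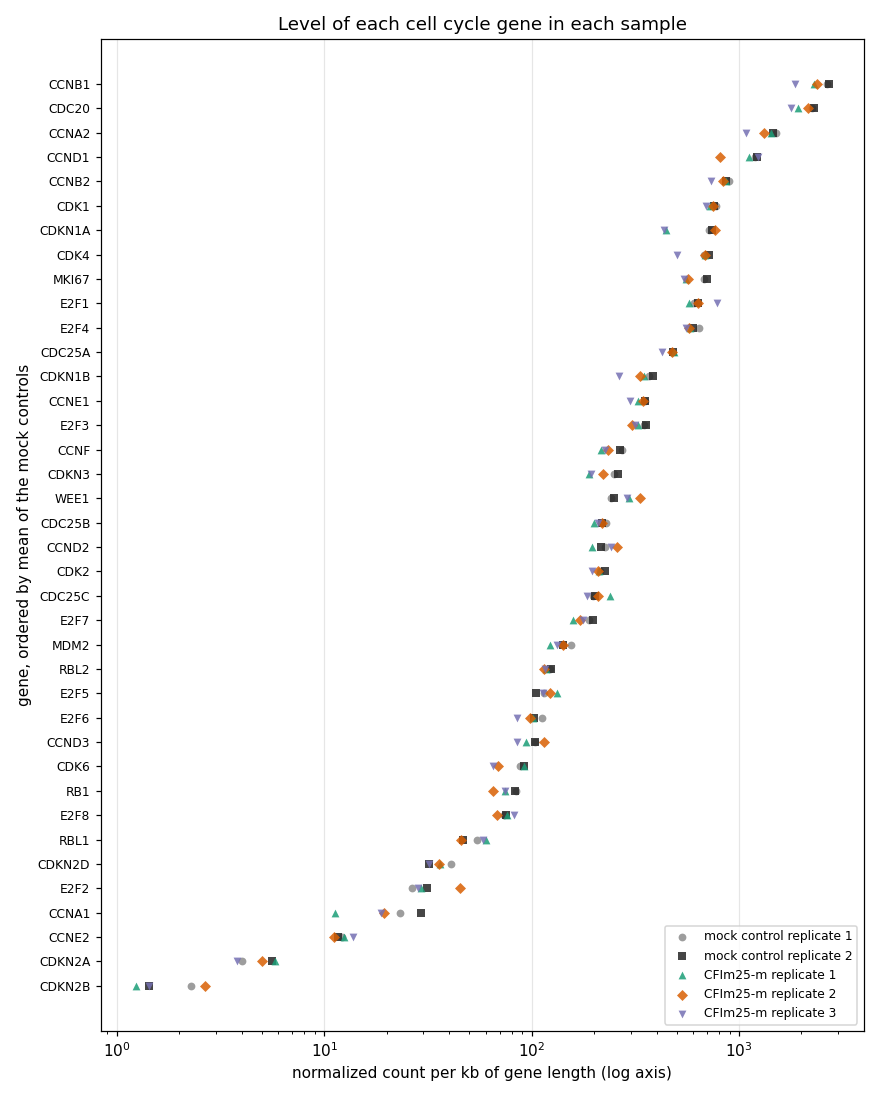
Normalized count per kb of gene length (log axis) in each of the 5 samples for 38 of the 39 genes, ordered by the mean of the mock controls; CDKN2C is left out because 4 of its 5 values are 0. CCNB1, CDC20, CCNA2 and CCND1 lie at the top, and the INK4 genes CDKN2A and CDKN2B at the bottom.

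The clones themselves differed in how far they lay from the mock controls. CFIm25-m replicate 1 was below both mock controls for 25 of the 37 genes and above both for 8. The counts were 24 and 8 for replicate 2, and 28 and 7 for replicate 3. The matching shares over all tested genes were not computed for single clones, so these counts only describe the set. The median difference from the mock mean was -0.09, -0.08 and -0.17 on the log2 scale, where all tested genes had medians of 0, 0 and -0.02 and the mock controls differed by 0.02 between themselves. The median over the 37 genes therefore lay lowest in replicate 3.

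The rest of the pathway was read from 5 further lists. None of the 38 tested G2/M and mitosis genes was called in either direction, 15 were lower at an unadjusted p below 0.05 and 1 higher (HMMR), where the shares among all tested genes were 7.15% and 7.99%. In 25 of the 38 every clone was below both mock controls, where the share among all tested genes was 19.8%. Their median log2 fold change was -0.17. The lowest adjusted p was that of ANLN, a scaffold of the contractile ring, at 0.0617, with 2740 and 2660 normalized counts against 2150, 1920 and 2060 (log2 fold change -0.41). Of the 36 G1/S and replication genes, 0 were called, 0 were lower and 2 higher at an unadjusted p below 0.05 (7.15% and 7.99% of all tested genes), and the median was -0.07. Among those was RRM2, a ribonucleotide reductase subunit, at 919 and 925 against 1200, 1130 and 1120 (log2 fold change 0.32, adjusted p = 0.146). In 12 of the 36 every clone was below both mock controls and in 4 above both, against 19.8% and 17% of all tested genes. The log2 fold change was below 0 for 30 of the 38 G2/M genes and 25 of the 36 G1/S genes, against 51.8% of all tested genes. ANLN, HMMR and RRM2 were named after their values were seen.

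The 9 genes of the DREAM and MuvB complexes and the DP partners of E2F had 0 calls and a median of -0.07. Of the 24 other cyclin, CDK and SCF regulators, 23 were tested, with 0 calls and a median of -0.13. At an unadjusted p below 0.05, 3 of these were lower and 1 higher, against 7.15% and 7.99% of all tested genes. Every clone was below both mock controls in 2 of the 9 and 9 of the 23, against 19.8% of all tested genes. Every clone was above both in 0 of the 9 and 1 of the 23, against 17%. The log2 fold change was below 0 for 5 of the 9 and 19 of the 23, against 51.8%.

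Of 14 mitogen and WNT inputs to the D-type cyclins, 1 was called lower, against 0.936% of all tested genes. This was AXIN2, a WNT target and part of the complex that degrades beta-catenin, at 666 and 714 normalized counts against 465, 390 and 436 (log2 fold change -0.68, SE 0.12, adjusted p = 0.0218). Each clone was below both mock controls. The call was lost without mock control replicate 1 or 2 (adjusted p = 0.19 and 0.32) and without CFIm25-m replicate 1 or 2 (0.0553 and 0.0562), and the lowest adjusted p with 1 sample left out was 0.00596. The other 13 had 3 lower and 0 higher at an unadjusted p below 0.05, against 7.15% and 7.99% of all tested genes. The median of the 14 was -0.09. In 4 of the 14 every clone was below both mock controls and in 1 above both, against 19.8% and 17% of all tested genes.

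**Figure D4:**
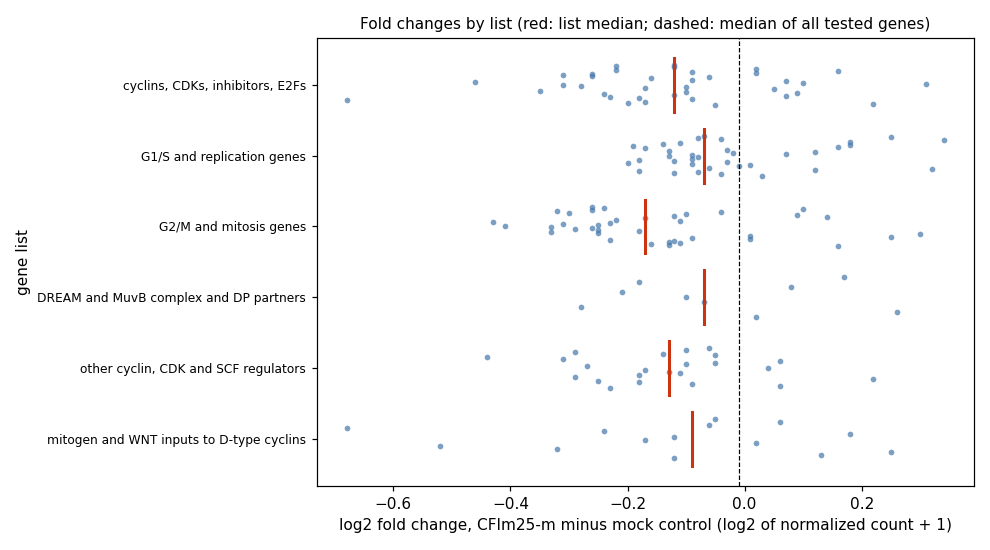
Log2 fold change (CFIm25-m minus mock control) of each tested gene of the cell cycle set and of the 5 further lists, one point a gene, with the list median in red and the median of all tested genes (-0.01) dashed. The G2/M and mitosis genes have the lowest median (-0.17) and the G1/S genes lie nearer to 0 (-0.07).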

How the data were processed

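Poly(A+) RNA of 2 mock control and 3 CFIm25-m samples of H9 cells was sequenced. The authors deposited normalized counts, a signal in which gene counts are scaled by a size factor per library, and the submitters' notes name HISAT2, featureCounts of Subread, DESeq2 and hg38. The annotation release and strand setting are not given in the sources used here. The authors' own group means, fold changes and p-values, in the same table, were not used. Samples were grouped by their labels. In each sample 100% of values were whole multiples, within 0.01 read, of the value of 1 read. For CFIm25-m replicate 1 that value, 1.002, lies so near 1 that recovered reads were not claimed for tests.

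Genes with at least 10 normalized counts in at least 2 samples entered a limma 3.58.1 fit (R 4.3.3, mean-variance trend) on log2(value + 1), so fold changes of low genes are understated. Benjamini-Hochberg adjustment ran over all 19232 tested genes, with a threshold of 0.05. As alternatives, edgeR 4.0.16 and DESeq2 1.42.0 were run on recovered reads of the other 4 samples. The test was tried on simulated data. With 10 arrangements of the samples, an exact permutation test cannot reach 0.05. The members and gene lists were chosen with earlier results of these data known. Some items of the lists are not reported here. All 39 members are named, by role, and of the other lists the genes that passed the test, with others said to be named after their values were seen. Levels between genes were compared per kb of the deposited gene length. Intervals on counts of 0 cover counting error only. All 39 genes overlapped their RefSeq position on GRCh38.p14. The p-values measure the spread between single clones.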

Additional observations from a re-analysis of the deposited data

How the results depend on the processing

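The count of cell cycle genes called was 0 in each direction with pseudocounts of 0.1 and 5, no filter, a minimum of 50, TMM scaling, scaling to the total, no trend, and by edgeR and DESeq2 on the 4 samples other than CFIm25-m replicate 1, the last 2 chosen after seeing the data. edgeR and DESeq2 on all 5 samples were not run, since recovered reads were claimed for 4. Leaving out 1 sample gave 0 to 1 lower (CDKN1A without CFIm25-m replicate 2, MKI67 without replicate 3) and 0 to 1 higher (WEE1 without replicate 3). Over these alternatives the lowest adjusted p among the 37 ran from 0.0104 to 0.817, and without either mock control 0 of them had an unadjusted p below 0.05. Scaling to the total moved the median of the 37 from -0.12 to -0.05 and that of all genes from -0.01 to 0.06, and the calls over all genes from 180 lower and 181 higher to 147 and 238.

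The replicate numbers only name different clones and pair nothing (Pearson r across genes of deviations 0.00717 and 0.018 for the same numbers, genes not being independent replicates). The fit with the replicate number as a block, in which CFIm25-m replicate 3 carries no weight because no mock control shares its number, called 5 lower and 1 higher: CCND1 -0.34, CCNB1 -0.20, CCNF -0.26, CDKN1A -0.32, MKI67 -0.30 and WEE1 0.34 as log2 fold changes. Over all genes the block gave 1064 lower and 1043 higher. The other counts over all genes were 25 and 21 without the trend, 95 and 72 by edgeR, 213 and 255 by DESeq2, and 33 to 524 and 31 to 520 when 1 sample was left out. The cause was not tested.

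Log2 fold changes near 0 changed sign. Leaving out 1 sample gave -0.03 to 0.17 for CCND2, -0.01 to 0.15 for CCNE2, -0.21 to 0.25 for CDKN2A, -0.23 to 0.11 for CDKN2D, -0.04 to 0.19 for E2F1, -0.05 to 0.09 for E2F8, -0.01 to 0.22 for RBL1, -0.09 to 0.01 for CDC25A and -0.02 to 0.16 for CDC25C. The replicate block gave -0.01 for CCNE2, -0.04 for E2F1, -0.05 for E2F8 and 0.01 for CDC25A. Scaling to the total gave 0.01 for CDKN2D and 0.02 for CDC25A. edgeR and DESeq2 both gave -0.11 for CDKN2A, and DESeq2 gave -0.01 for CDC25C. AXIN2 was not called without the trend (adjusted p = 0.128) or by edgeR on the 4 samples without CFIm25-m replicate 1 (0.0599), a sample whose removal alone also ended the limma call (0.0553), and NUDT21 was not called without the trend (0.106) or without either mock control (0.0618 and 0.0557). CDKN2B and CDKN2C, under the minimum of the main test, were tested and not called with no filter.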
